A study of Mus musculus with 23 samples.

Results

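Ribosome footprints from Lgr5-driven pulldowns of mouse small intestine were compared with footprints from stem cell enriched (SCe) intestinal organoids, as a comparison of tissue with culture. The members were the 3 wild-type mouse libraries (Lgr5 WT, m1 to m3) and the 3 SCe organoid libraries (org1 to org3), which are 6 of the 23 libraries of the series. The other 17 libraries are footprints of Rptor fl/fl mice and organoids and mRNA of organoids, and they are used here only beside a result of these 6. A gene entered the comparison when its coding sequence was in both sets of quantified sequences, which held for 22228 genes, and 10965 of those had enough footprints to be tested.

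The mice carried the genotype Lgr5Cre.ERT2.RPL22.HA and the organoids VillinCre.ERT2.RPL22.HA, both on the C57BL/6 strain, and no floxed Rptor allele was present in either group. Both therefore carried a ribosomal protein, RPL22, that gains an HA tag in cells where the Cre recombinase has been active, and an HA antibody then recovers the ribosomes of those cells. Cre is driven by the stem cell gene Lgr5 in the mice and by the epithelial gene Villin in the organoids, so the tag marks a subset of crypt base cells in one group and the whole epithelium in the other. The mice are labelled untreated, although the methods describe sampling a day after a tamoxifen injection that switches the recombinase on. The organoids were grown with 10 μM CHIR 99021, an inhibitor of GSK3 that raises Wnt signalling, and 1.5 mM valproic acid, an inhibitor of histone deacetylases. Whole small intestine was flushed, frozen and ground before lysis, whereas organoid cells were lysed fresh, and the pulldown ran overnight for the mice and for a few hours for the organoids. Cre driver, medium, lysis, pulldown time, rRNA depletion and reference sequences all changed together with tissue and culture, and their parts in any difference below cannot be told apart.

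The intestinal epithelium is renewed from stem cells at the crypt base that express Lgr5, a receptor that strengthens Wnt signalling. Their daughters divide in the crypt and become absorptive enterocytes, or one of the secretory types, which are the Paneth cells that make antimicrobial peptides, the mucus-making goblet cells, the hormone-making enteroendocrine cells and the chemosensory tuft cells. Beneath the epithelium lie fibroblasts, smooth muscle, vessels, nerves and immune cells, none of which grow in epithelial organoids. A footprint is a piece of mRNA covered by a ribosome, so its count reflects mRNA abundance and translation together. In bulk material of this kind, fewer cells of a type and less RNA per cell cannot be told apart.

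Footprints on shared genes numbered 770700, 2148087 and 5327438 in the mice and 1981129, 1106178 and 4242425 in the organoids. The smallest library of each group limits what low genes can show. Values are given as CPM, footprint counts scaled to library size by edgeR's trimmed mean of M values. They are listed in the order m1, m2, m3 and org1, org2, org3. Over genes, the Spearman correlation between libraries was 0.959 to 0.982 among the mice, 0.922 to 0.952 among the organoids and 0.492 to 0.588 between the groups. The sequences quantified for the mice reach further on the 5′ side than those for the organoids, by 105 bases at the median, and the organoid footprints in the matching 5′ entries, 2.97 to 6.98% of each library, were quantified apart. Only large differences are therefore reported in detail, where large means at least 4-fold and an adjusted p below 0.05 by edgeR's quasi-likelihood test.

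Lgr5 drives the tag in the mice, so its footprints are given first. No input or mRNA library of the mice is among the libraries, so enrichment of Lgr5 footprints by the pulldown cannot be checked. Lgr5 had 9.0, 17 and 48 footprints in the mice, or 12.7, 9.01 and 10.5 CPM, and 351, 402 and 558 CPM in the organoids. The mouse libraries were all far below the organoid libraries, by 40.8-fold (log2 fold change -5.39 ± 0.28 (SE), adjusted p = 1.31e-06). The Villin gene Vil1, which encodes a protein of the brush border and drives Cre in the organoids, went the other way, with 5494, 5569 and 5523 CPM in the mice and 668, 969 and 696 CPM in the organoids (log2 fold change 2.83 ± 0.24 (SE), adjusted p = 1.23e-05). The defining marker of the labelled cells was thus detected in every mouse library, at a low level, and the label of the mouse group is used here only as a name.

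At an adjusted p below 0.05, 3769 genes (34.4% of those tested) were higher in the mice and 3056 (27.9%) were lower. Large differences were fewer and less even: 2017 genes (18.4%) were at least 4-fold higher in the mice and 691 (6.3%) at least 4-fold lower, so that 74.5% of large calls were higher. When the organoid 5′ entries were added to their genes, 1852 of the 2017 and 591 of the 691 stayed large in the same direction, and 1849 and 588 of these also had no overlap between the CPM values of the groups. Genes named below come from those 1849 and 588 unless stated otherwise. The median log2 fold change of all tested genes was 0.09, and it moved by -0.17 with upper-quartile scaling and by -0.23 when the 10 genes with most footprints were left out of the library sizes, so a difference smaller than that has no fixed direction. A gene can also enter the test through its level in one group alone, so list counts and medians are given as descriptions of the tested members only.

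Stem cell and Wnt genes were lower in the mice. Of 24 listed stem cell genes 23 were tested, 22 were lower, 14 of them by at least 4-fold, and none was higher, with a median log2 fold change of -2.42. Of 20 Wnt targets 17 were tested, 16 were lower, 10 of them by at least 4-fold, with a median of -2.54 (-2.40 with the genes at or under the floor set to their bound). The lists overlap, since Lgr5, Ascl2, Axin2, Rnf43, Znrf3, Tnfrsf19, Ephb2 and Ephb3 are on both. Their counts and medians are therefore not separate observations. Together the stem cell genes held 0.109 to 0.115% of the footprints on shared genes in the mice and 0.434 to 0.759% in the organoids. Smoc2, a secreted matrix protein made by Lgr5-positive cells, had 22.5, 31.8 and 46.6 CPM in the mice and 560.1, 926 and 852 CPM in the organoids (log2 fold change -4.47 ± 0.33 (SE), adjusted p = 5.41e-06). Soat1, which esterifies cholesterol, had 31, 36 and 32.8 CPM in the mice and 394, 384 and 537 CPM in the organoids (log2 fold change -3.71 ± 0.22 (SE), adjusted p = 2.16e-06). Both genes were low in all the mice, with a gap of more than 10-fold to the lowest organoid library. Slc12a2, the ion carrier NKCC1 of crypt cells, was 6.29-fold lower in the mice, with 199.8, 187 and 198 CPM in the mice and 1052, 1237 and 1387 CPM in the organoids (log2 fold change -2.65 ± 0.20 (SE), adjusted p = 6.93e-06). The Wnt targets Cd44, a cell surface receptor for hyaluronan, and Sox4, a transcription factor, were 9.40-fold and 8.51-fold lower, with adjusted p = 8.96e-06 and 8.39e-05 by edgeR.

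The stem cell markers that the study itself follows did not move by like amounts. Mex3a, an RNA-binding protein, was near the limit of detection in the mice, with 1.41, 1.06 and 0.876 CPM in the mice and 5.55, 13.8 and 11.9 CPM in the organoids (log2 fold change -3.32 ± 0.54 (SE), adjusted p = 0.000542). Axin2, a feedback inhibitor of Wnt signalling, was lower by less than 4-fold, with 60.5, 42.4 and 51.2 CPM in the mice and 116, 185 and 202 CPM in the organoids (log2 fold change -1.73 ± 0.25 (SE), adjusted p = 0.0003). Olfm4, a secreted glycoprotein of crypt base cells, had 508, 554 and 578 CPM in the mice and 386, 763 and 1012 CPM in the organoids, and its groups overlapped because org1 lay below all the mice (log2 fold change -0.40 ± 0.31 SE, edgeR adjusted p = 0.292). Leaving out org1 gave Olfm4 a log2 fold change of -0.75 (adjusted p = 0.00128 by edgeR). Its adjusted p ran from 8.75e-12 to 1 over all alternatives. The lowest value came from edgeR on the Rptor fl/fl mice and organoids, which are other libraries. Among the stem cell genes, Olfm4 was the single tested gene without a call, and among the Wnt targets it was Bambi, a decoy receptor of TGF-β signalling, at log2 0.67.

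**Figure D1:**
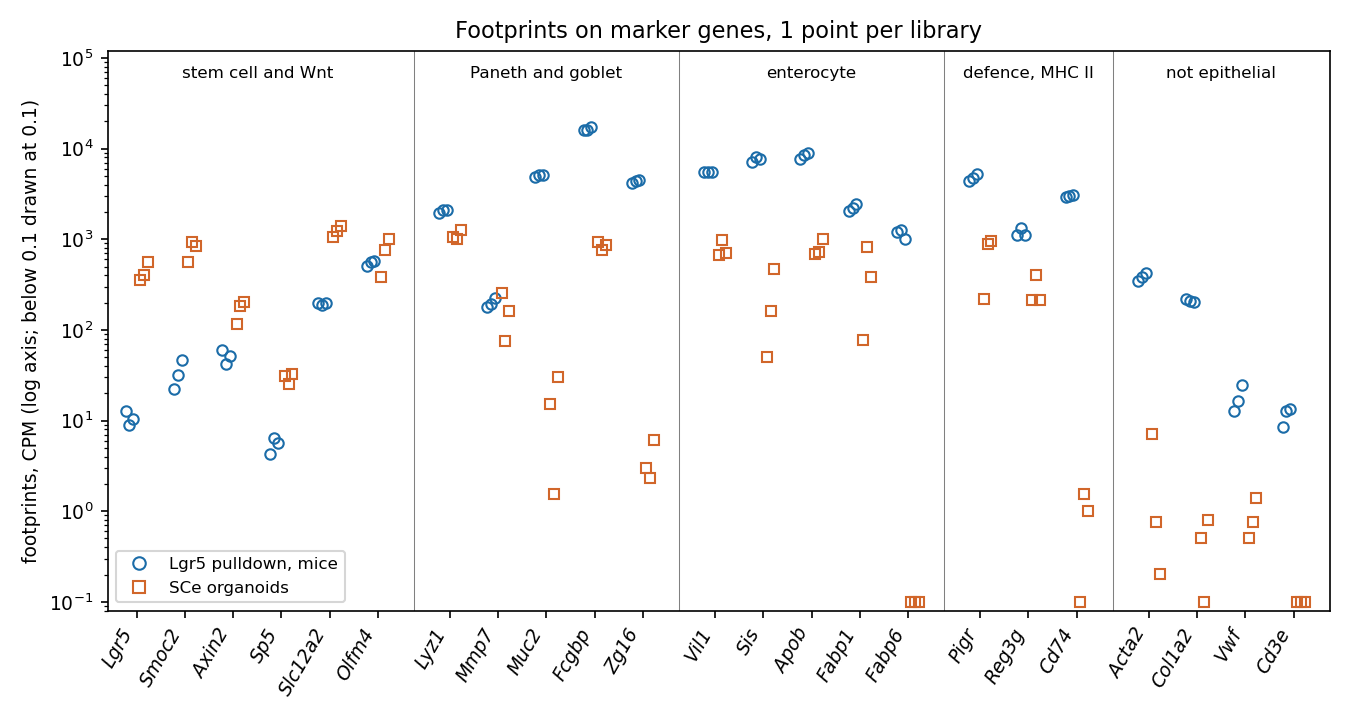
Footprints on marker genes in CPM (log axis), with 1 point per library, circles for the 3 mice and squares for the 3 SCe organoid cultures. Lgr5 and Smoc2 lie lower in all the mice, Muc2, Zg16, Cd74 and Fabp6 lie higher in all of them, and the groups overlap for Olfm4 and Mmp7.

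Most goblet cell genes were higher in the mice. Of 18 listed genes 16 were tested, 13 were higher in the mice, 11 of them by at least 4-fold, and 1 was lower, with a median log2 fold change of 2.93 (2.93 with the genes at or under the floor set to their bound). Muc2, the main gel-forming mucin of the gut, had 4837, 5095 and 5051 CPM in the mice and 15.1, 1.53 and 29.9 CPM in the organoids (log2 fold change 8.18 ± 0.71 (SE), adjusted p = 1.53e-05). Zg16, a lectin-like protein of the mucus that binds bacteria, had 4138, 4422 and 4526 CPM in the mice and 3.02, 2.30 and 6.05 CPM in the organoids (log2 fold change 9.97 ± 0.39 (SE), adjusted p = 7.54e-07). The mice agreed within a narrow range for both genes while the organoid libraries were 2 or more orders of magnitude lower. Fcgbp, a mucus protein that binds to Muc2, was present in culture as well, with 15891, 15996 and 17111 CPM in the mice and 926, 762 and 867 CPM in the organoids (log2 fold change 4.26 ± 0.24 (SE), adjusted p = 1.91e-06). The gene that was lower in the mice was Foxa3, a transcription factor of secretory cells, at log2 -2.30, and Galnt12 and Creb3l1 had no call, at log2 -0.33 and 0.99.

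Paneth cell genes split into those present in both groups and those nearly limited to the mice. Of 18 listed genes present in both references 17 were tested and 14 were higher in the mice, 12 of them by at least 4-fold, with a median of 2.88. Of the 17 tested genes, 12 share coding sequence with another gene, so near copies can enter the count and the median more than 1 time. Lyz1, the lysozyme of Paneth granules, had 1935, 2098 and 2078 CPM in the mice and 1067, 994 and 1269 CPM in the organoids and was higher by less than 4-fold (log2 fold change 0.88 ± 0.20 (SE), adjusted p = 0.00376). Mmp7, the protease that activates the defensins, had 180.1, 193 and 222 CPM in the mice and 254, 75.9 and 160.0 CPM in the organoids, with groups that overlapped and no call (log2 0.28). Itln1, an intestinal lectin, and Habp2, a protease, had none either, at log2 0.15 and -0.38. The α-defensins are antimicrobial peptides whose genes are near copies of one another, so their separate values are uncertain. Defa24 had 5212, 5713 and 6369.9 CPM in the mice and 868, 699.6 and 1200.3 CPM in the organoids and Defa20 had 2286, 2340.4 and 1692 CPM in the mice and 15.1, 32.9 and 46 CPM in the organoids. With copies summed, the group that holds Defa24 and Defa3 gave a log2 fold change of 2.55 and the group that holds Defa20 gave 5.56, so the family was higher in the mice on either count and its groups of copies were not higher by the same amount.

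Hormone and tuft cell genes were higher in the mice where they could be tested. Of 22 enteroendocrine genes 14 were tested, 12 were at least 4-fold higher and 1 was lower, with a median of 4.46 (4.0 with the genes at or under the floor set to their bound). Chga, the granule protein chromogranin A, had 91.5, 117 and 137 CPM in the mice and 4.54, 5.36 and 7.47 CPM in the organoids (log2 fold change 4.24 ± 0.27 (SE), adjusted p = 3.23e-06). Gip, an incretin hormone of the upper small intestine, had 106, 102 and 123 CPM in the mice and 1.01, 3.07 and 4.44 CPM in the organoids (log2 fold change 5.09 ± 0.35 (SE), adjusted p = 4.36e-06). Chgb, a second granule protein, had 208, 219 and 232 CPM in the mice and 25.7, 39.8 and 38.9 CPM in the organoids (log2 fold change 2.66 ± 0.21 (SE), adjusted p = 9.56e-06). The groups did not overlap for any of these. Neurog3, the factor that commits progenitors to the endocrine fate, was the gene that was lower in the mice, with 2.81, 1.59 and 2.19 CPM in the mice and 5.04, 20.7 and 20.0 CPM in the organoids (log2 fold change -2.84 ± 0.61 (SE), adjusted p = 0.00276). Thus the hormone and granule genes and the progenitor factor lay on opposite sides. Of 14 tuft cell genes 7 were tested and all 7 were at least 4-fold higher, with a median of 7.54 (3.89 with the genes at or under the floor set to their bound), and 7 of the 14 had no footprint in any organoid library. Ptgs1, the cyclooxygenase COX-1, had 35.2, 33.9 and 48.6 CPM in the mice and 0.504, 0 and 0 CPM in the organoids (at least 26.6-fold higher in the mice, adjusted p = 6.78e-06). Fyb, another of the tuft genes with most footprints, is also made by myeloid and T cells, whose markers were higher in the mice too, and the part of those cells in its value was not tested.

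Absorptive enterocyte genes took a large part of the mouse footprints. All 20 brush border genes were tested and all 20 were at least 4-fold higher in the mice, with a median of 5.81. Together they held 4.07 to 4.29% of the footprints on shared genes in the mice and 0.0791 to 0.261% in the organoids. Anpep, a peptidase that trims dietary peptides, had 8989, 9446 and 9305 CPM in the mice and 122, 166 and 203 CPM in the organoids (log2 fold change 5.82 ± 0.30 (SE), adjusted p = 1.25e-06). Sis, the enzyme sucrase-isomaltase, had 7049, 8081 and 7736 CPM in the mice and 50.4, 160.1 and 475 CPM in the organoids (log2 fold change 5.05 ± 0.72 (SE), adjusted p = 0.000263). The mice were alike, whereas the organoid cultures differed from one another by up to an order of magnitude, lowest in org1 and highest in org3. Mgam, maltase-glucoamylase, had 7608, 8414 and 8363 CPM in the mice and 157, 261 and 414 CPM in the organoids (log2 fold change 4.87 ± 0.38 (SE), adjusted p = 8.55e-06), in the same order of cultures. Alpi, the alkaline phosphatase that the study uses as a marker of differentiation, had 1029, 1169.7 and 1367 CPM in the mice and 204, 248 and 298 CPM in the organoids (log2 fold change 2.25 ± 0.23 (SE), adjusted p = 3.56e-05).

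Genes of fat absorption followed the brush border genes. Of 20 tested genes 18 were higher in the mice, all 18 by at least 4-fold, with a median of 3.54 (3.54 with the genes at or under the floor set to their bound). The list held 5.30 to 5.39% of the footprints on shared genes in the mice and 0.178 to 0.424% in the organoids. Apoa1, an apolipoprotein of chylomicrons and of HDL, had 15318, 15414 and 15194 CPM in the mice and 39.8, 62.8 and 140.2 CPM in the organoids (log2 fold change 7.54 ± 0.53 (SE), adjusted p = 4.8e-06). Apoa4, another apolipoprotein of chylomicrons, had 12138, 12758 and 14452 CPM in the mice and 38.8, 138 and 418 CPM in the organoids (log2 fold change 6.03 ± 0.79 (SE), adjusted p = 0.000158). Fabp2, the intestinal fatty acid binding protein, had 10225, 10833 and 9012 CPM in the mice and 116, 409.9 and 271 CPM in the organoids (log2 fold change 5.24 ± 0.47 (SE), adjusted p = 1.72e-05). For Apoa1 and Apoa4 the cultures again ranked org1, org2, org3 from low to high. The HDL receptor Scarb1 and the lipid droplet protein Plin2 had no call, at log2 -0.63 and 0.46. Of 7 genes of ileal bile acid handling 6 were tested and all 6 were at least 4-fold higher, with a median of 10.06 (5.80 with the genes at or under the floor set to their bound). Fabp6, which carries bile acids in ileal enterocytes, had 1202, 1268 and 1006 CPM in the mice and 0, 0 and 0 CPM in the organoids (at least 787-fold higher in the mice, adjusted p = 1.13e-06), and both chains of the basolateral bile acid exporter, Slc51a and Slc51b, were at 461, 441 and 419.8 CPM and 74.6, 88 and 88.2 CPM in the mice with at most 1.01 CPM in a culture. The mouse tissue was the whole small intestine, and the region from which the organoid crypts came was not given in the sources used here.

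Genes made by all epithelial cells had a smaller median difference than the brush border and fat absorption genes. Of 14 pan-epithelial genes 9 were higher in the mice, 4 of them by at least 4-fold, and 2 were lower, with a median of 1.20. The shares over all tested genes were 34.4% higher and 27.9% lower, with 18.4% and 6.3% by at least 4-fold. By these shares, calls were not rarer in the list. The adhesion protein Epcam had 1861, 2020.3 and 1974 CPM in the mice and 1024, 1658 and 1589 CPM in the organoids and no call (log2 0.46), and the claudin Cldn3 and the tetraspanin Tspan8 had none either, at log2 0.26 and 0.11. Krt20, a keratin of mature villus cells, stood apart from the rest of the list with 3813, 4183 and 4287 CPM in the mice and 3.53, 48.3 and 32.5 CPM in the organoids (log2 fold change 7.21 ± 0.74 (SE), adjusted p = 3.95e-05). Of 22 intestinal transcription factors 13 were higher and 4 lower, 8 and 3 of them by at least 4-fold. Hnf4g, a factor of enterocyte identity, had 568, 692 and 682 CPM in the mice and 14.6, 47.5 and 36.7 CPM in the organoids (log2 fold change 4.31 ± 0.38 (SE), adjusted p = 1.7e-05). Its relative Hnf4a had 367, 378 and 403 CPM in the mice and 164, 275 and 188 CPM in the organoids, a smaller difference (log2 0.88, adjusted p = 0.00684 by edgeR), and Gata4, Gata6, Cdx1 and Onecut2 had no call, with log2 values between 0.09 and 0.49. Maf, a factor of villus enterocytes that macrophages also make, and Creb3l3, a factor of lipid metabolism, were 66.1-fold and 27.2-fold higher in the mice, with adjusted p = 1.06e-06 and 7.56e-06 by edgeR.

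**Figure D2:**
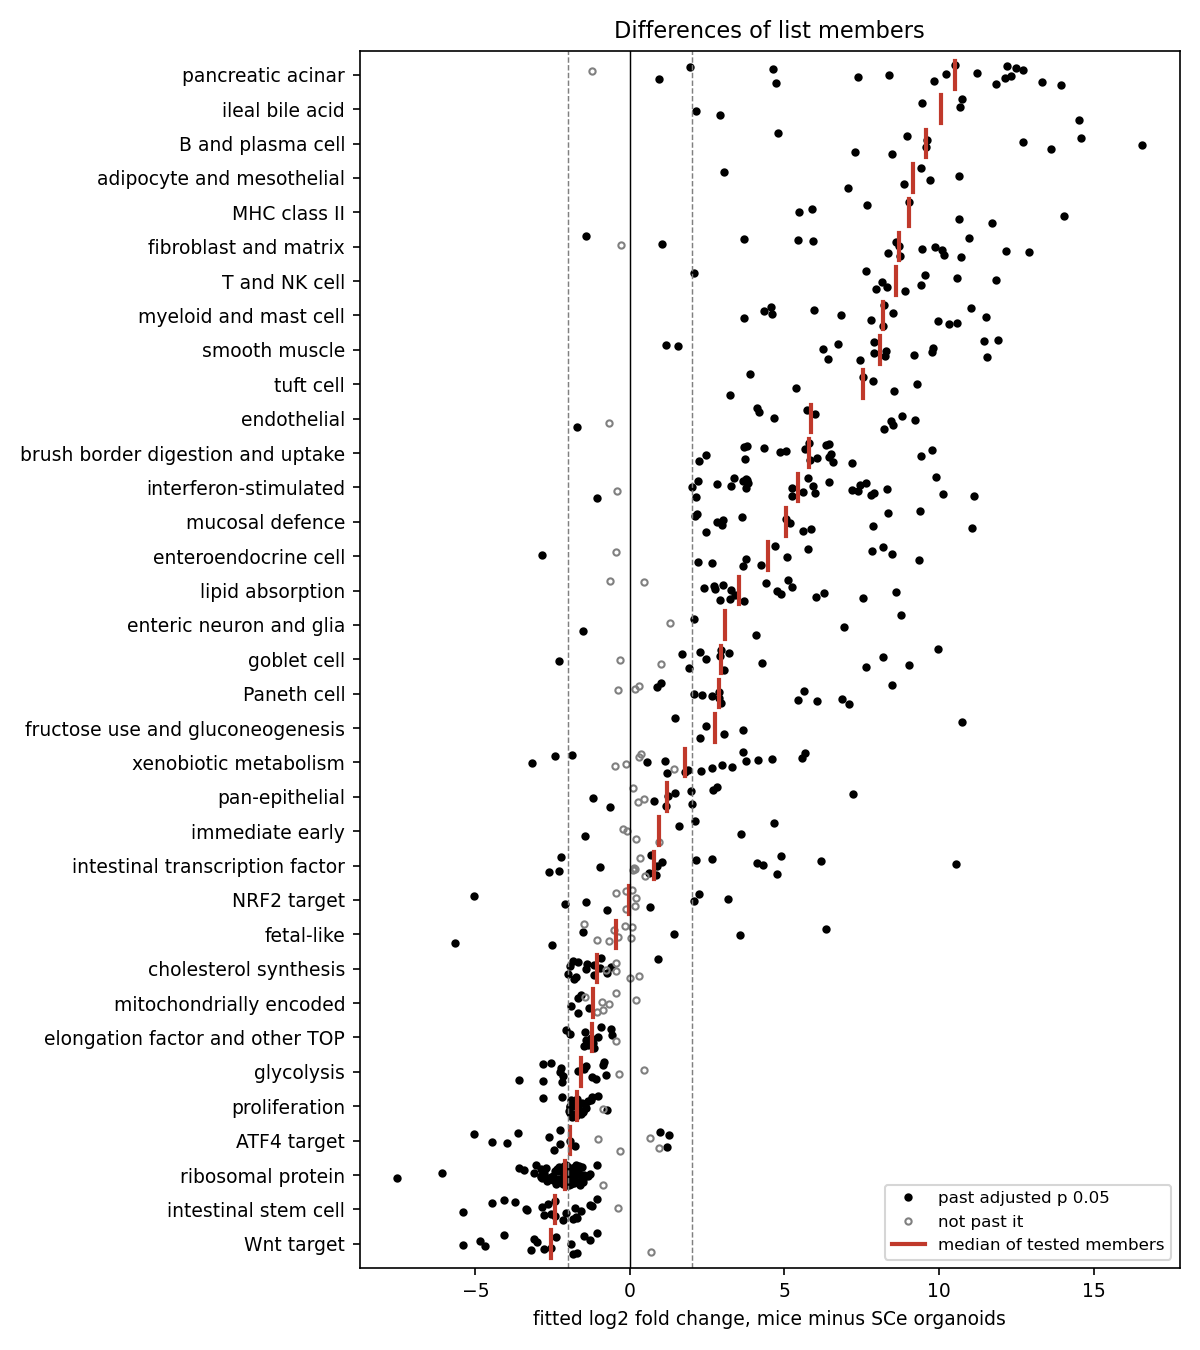
Fitted log2 fold changes (mice minus SCe organoids) of the tested members of each gene list, with filled points for adjusted p below 0.05 by edgeR, open points for the rest, red bars for list medians and dashed lines at 4-fold. Fitted values of genes with almost no footprints in one group depend on the prior count and are not bounds. The Wnt target and stem cell lists have the lowest medians, at -2.54 and -2.42.

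Genes that answer to microbes and interferon were higher in the mice. Of 19 mucosal defence genes 15 were tested and all 15 were at least 4-fold higher, with a median of 5.05 (3.02 with the genes at or under the floor set to their bound). Pigr, the receptor that carries IgA across the epithelium, had 4432, 4751 and 5228 CPM in the mice and 217, 896 and 954 CPM in the organoids (log2 fold change 2.80 ± 0.49 (SE), adjusted p = 0.00085). Reg3b, an antibacterial lectin, had 2293, 2507 and 2996 CPM in the mice and 99.3, 415 and 129 CPM in the organoids (log2 fold change 3.61 ± 0.52 (SE), adjusted p = 0.000275). Both were made in all 3 cultures, at levels that varied by about 4-fold among them. Of 8 genes of MHC class II presentation 7 were tested and all 7 were at least 4-fold higher, with a median of 9.02 (5.88 with the genes at or under the floor set to their bound). Cd74, the invariant chain, had 2907, 2990.1 and 3075 CPM in the mice and 0, 1.53 and 1.01 CPM in the organoids, and H2-Aa, an α chain, had 744, 843 and 867 CPM in the mice and 0, 0 and 0 CPM in the organoids (at least 556-fold higher in the mice, adjusted p = 1.06e-06). The β chain gene H2-Ab1 was detected in every culture, with 1186, 1189 and 1179 CPM in the mice and 5.04, 43.7 and 32.3 CPM in the organoids (log2 fold change 5.47 ± 0.59 (SE), adjusted p = 5.57e-05). B cells and myeloid cells make MHC class II as well as the epithelium, and footprints of their markers were higher in the mice too. Their part was not tested. Of 31 interferon-stimulated genes 30 were tested and 28 were higher, all 28 by at least 4-fold, with a median of 5.43 (3.80 with the genes at or under the floor set to their bound). Irf1, a transcription factor of the response, had 250.4, 281 and 312 CPM in the mice and 21.2, 29.9 and 14.1 CPM in the organoids (log2 fold change 3.76 ± 0.28 (SE), adjusted p = 6.34e-06). Igtp, a GTPase that acts on vacuoles of pathogens, had 249, 325 and 352 CPM in the mice and 4.03, 0 and 1.82 CPM in the organoids (log2 fold change 7.19 ± 0.45 (SE), adjusted p = 2.75e-06). Bst2, which tethers viruses at the membrane, was the member that was lower in the mice, at log2 -1.08, and Ifit2 had no call, at log2 -0.41.

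Genes of drug and toxin metabolism were mixed. Of 24 listed genes 23 were tested, 15 were higher in the mice and 3 lower, 10 and 2 of them by at least 4-fold, with a median of 1.77. Cyp3a13, a cytochrome of the CYP3A family, had 1286, 1390.1 and 1444 CPM in the mice and 52.4, 41.4 and 74.1 CPM in the organoids (log2 fold change 4.60 ± 0.27 (SE), adjusted p = 2.08e-06), and the carboxylesterase Ces2e had 1773, 1816 and 2089.8 CPM in the mice and 64, 272 and 239.9 CPM in the organoids (log2 fold change 3.30 ± 0.47 (SE), adjusted p = 0.000262). The genes that were lower were Cyp2c55, Gsta4 and Gstm1, at log2 -3.16, -2.42 and -1.88, the last with near copies. Targets of NRF2, the regulator of the oxidative stress response, had 4 higher and 4 lower of 14, near the shares over all tested genes (34.4% and 27.9%), and a median of -0.03. Nqo1, a quinone reductase, had 64.7, 65.7 and 61.9 CPM in the mice and 15.1, 24.5 and 9.69 CPM in the organoids (log2 fold change 2.06 ± 0.32 (SE), adjusted p = 0.000406), whereas Slc7a11, the cystine importer, had 1.41, 0 and 2.19 CPM in the mice and 36.8, 28.4 and 79.1 CPM in the organoids (log2 fold change -5.04 ± 0.66 (SE), adjusted p = 0.000149). The sign of that median changed with the settings tried, from -0.25 to 0.07.

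Sugar metabolism separated by pathway. Of 18 glycolysis genes 16 were lower in the mice, 8 of them by at least 4-fold, and none was higher, with a median of -1.58. Aldoa, the aldolase of glycolysis, had 581, 568 and 633 CPM in the mice and 2744, 2609.9 and 2855 CPM in the organoids (log2 fold change -2.20 ± 0.19 (SE), adjusted p = 1.69e-05). Pgk1, which makes ATP in the same pathway, had 547, 498 and 513 CPM in the mice and 2572, 2167 and 2561 CPM in the organoids (log2 fold change -2.23 ± 0.20 (SE), adjusted p = 1.78e-05). The groups were tight and wide apart for both. Eno1, enolase, shares its coding sequence with Eno1b, and its log2 fold change of -3.60 alone became -1.66 with the copies summed. Ldha, lactate dehydrogenase, and Pfkp, a phosphofructokinase, had no call, at log2 -0.34 and 0.46. All 6 genes of fructose use and gluconeogenesis were higher in the mice, 5 of them by at least 4-fold, with a median of 2.76 (2.76 with the genes at or under the floor set to their bound). Khk, which phosphorylates fructose, had 378, 369.9 and 387 CPM in the mice and 45.4, 88.9 and 71 CPM in the organoids (log2 fold change 2.47 ± 0.25 (SE), adjusted p = 3.62e-05). Pck1, the entry enzyme of gluconeogenesis, had 447, 511 and 553 CPM in the mice and 1.01, 0 and 0 CPM in the organoids (at least 342-fold higher in the mice, adjusted p = 1.06e-06).

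Targets of ATF4 and genes of cholesterol synthesis had more members lower than higher in the mice. Of 17 tested targets of ATF4, the regulator of the amino acid response, 10 were lower, 8 of them by at least 4-fold, and 3 were higher, with a median of -1.95. The 3 large ones with the highest CPM are enzymes of serine metabolism. Phgdh, the first enzyme of serine synthesis, had 39.4, 33.9 and 39.8 CPM in the mice and 467, 646 and 660.1 CPM in the organoids (log2 fold change -3.97 ± 0.23 (SE), adjusted p = 1.91e-06). Psat1, the second, had 15.5, 17 and 18.4 CPM in the mice and 403, 271 and 470.2 CPM in the organoids (log2 fold change -4.46 ± 0.27 (SE), adjusted p = 2.23e-06). Shmt2, which turns serine into glycine in mitochondria, had 71.8, 49.3 and 57.1 CPM in the mice and 274, 374 and 427 CPM in the organoids (log2 fold change -2.62 ± 0.24 (SE), adjusted p = 2.02e-05). No mouse library reached any organoid library in these enzymes. The genes that were higher were Trib3, Slc3a2 and Cebpb, a pseudokinase, a transporter chain and a transcription factor, at log2 0.98, 1.27 and 1.20. Of 20 cholesterol synthesis genes 14 were lower and 1 higher, with a median of -1.06. Fdps, which makes farnesyl diphosphate and has near copies, was the single one at the 4-fold limit (log2 -2.0), and it was under it without m1, m3 or org3. Immediate early genes, which respond to handling as well as to growth signals, had 4 higher and 1 lower of 9, with Fos at 71.8, 75.3 and 99.2 CPM in the mice and 8.07, 3.83 and 7.47 CPM in the organoids (log2 fold change 3.60 ± 0.28 (SE), adjusted p = 8.49e-06) and Jun at log2 -0.21 without a call. Over all tested genes, 34.4% were called higher and 27.9% lower. The median of the immediate early genes ranged from -0.12 to 1.43 over the settings tried.

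Most listed cell cycle and translation genes were lower in the mice, by less than 4-fold for most proliferation genes and by at least 4-fold for 50 of 80 ribosomal protein genes. Of 29 proliferation genes 28 were lower, 2 of them by at least 4-fold, with a median of -1.73, and that count of 2 became 9 without org1, 7 without m2, 5 without org3 and 4 without m3. Mki67, a nuclear protein of cycling cells, had 197, 237 and 253 CPM in the mice and 457, 717 and 864 CPM in the organoids (log2 fold change -1.56 ± 0.26 (SE), adjusted p = 0.000631). Rrm2, which makes deoxynucleotides, had 25.3, 31.8 and 37.6 CPM in the mice and 234, 239.8 and 213 CPM in the organoids (log2 fold change -2.81 ± 0.20 (SE), adjusted p = 4.91e-06). Tpx2, a spindle protein, had 22.5, 30.7 and 32.4 CPM in the mice and 85.2, 164 and 153 CPM in the organoids (log2 fold change -2.18 ± 0.28 (SE), adjusted p = 0.000152). Every library of both groups held footprints of these genes. Of 80 ribosomal protein genes 79 were lower in the mice, with a median of -2.09. Together they held 1.77 to 1.86% of the footprints on shared genes in the mice and 7.56 to 12.9% in the organoids. The number lower by at least 4-fold became 17 without org1, in which several of these mRNAs had far more footprints than in the other cultures. Rps21 shows this with 162, 169 and 157 CPM in the mice and 3815, 739 and 641 CPM in the organoids (log2 fold change -3.41 ± 0.65 (SE), adjusted p = 0.00153), and Rplp2 with 270.1, 267 and 301 CPM in the mice and 3348, 1347 and 1099 CPM in the organoids (log2 fold change -2.79 ± 0.41 (SE), adjusted p = 0.000315). Rpl22, the ribosomal protein that carries the tag, had 68.9, 72.1 and 79.9 CPM in the mice and 581, 291 and 242 CPM in the organoids (log2 fold change -2.32 ± 0.33 (SE), adjusted p = 0.000246), a value close to the median of its list. Of 14 elongation factor and other TOP genes, whose mRNAs share with the ribosomal proteins a 5′ motif that mTORC1 acts on, 13 were lower with a median of -1.23. Of 12 tested mitochondrially encoded genes 5 were lower, beside 27.9% of all tested genes. None of the 5 was lower by 4-fold, and no other had a call. Of the list, 5 genes were at least 4-fold lower without org3 and 2 without m2. Of the 50 ribosomal protein genes, 33 stayed large when the organoid 5′ entries were added and the groups were required not to overlap.

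Fetal-like markers, which the study follows after loss of Rptor, had as many calls in each direction, while their summed share was lower in every mouse. The list held 0.0360 to 0.0411% of the footprints on shared genes in the mice and 0.0824 to 0.125% in the organoids, without overlap. Of 20 listed genes 14 were tested, with 3 higher and 3 lower in the mice, 2 and 2 of them by at least 4-fold, and a median of -0.44 (-0.44 with the genes at or under the floor set to their bound) that ran from -0.83 to 0.71 over the settings. Calls were no more frequent here than over all tested genes, of which 34.4% were higher and 27.9% lower. Spp1, a secreted phosphoprotein, had 9.85, 3.71 and 3.72 CPM in the mice and 2.52, 0.766 and 0 CPM in the organoids and was too low to test. Ly6a, the surface protein Sca1, had 39.4, 35.5 and 41.2 CPM in the mice and 127, 6.90 and 30.7 CPM in the organoids, and org1 alone lay above the mice (log2 -0.51 ± 0.72 SE, edgeR adjusted p = 0.557). Without org1 its log2 fold change was 0.74. Gja1, the gap junction protein connexin 43, had 40.8, 34.4 and 32.2 CPM in the mice and 0.504, 3.07 and 4.24 CPM in the organoids (log2 fold change 3.57 ± 0.45 (SE), adjusted p = 0.000125). Anxa1, an annexin, had 38, 31.8 and 33.9 CPM in the mice and 314, 135 and 147 CPM in the organoids (log2 fold change -2.54 ± 0.34 (SE), adjusted p = 0.000185). Both genes separated the groups, in opposite directions. Gja1 is also made by smooth muscle and fibroblasts, whose markers were higher in the mice, and their part was not tested. Rptor, the gene deleted elsewhere in the study and intact here, had 46.4, 46.1 and 53.6 CPM in the mice and 14.1, 37.5 and 18.4 CPM in the organoids (log2 fold change 1.13 ± 0.34 (SE), adjusted p = 0.0151), a difference under 4-fold. It lost its call with a length offset, with the 10 top genes left out of the library sizes, and without m3 (adjusted p = 0.0658 by edgeR, within a range of 1.47e-06 to 0.326 over its alternatives).

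Genes of cells outside the epithelium are given apart, since epithelial organoids do not contain those cells. The 10 lists of such genes together held 2.71 to 3.31% of the footprints on shared genes in the mice and 0.0840 to 0.198% in the organoids, and all immunoglobulin genes held 2.77 to 2.90% of the footprints on shared genes in the mice and 0 to 0.000236% in the organoids. These shares overlap, since the B and plasma cell list includes immunoglobulin genes. With each gene counted once, the lists and all immunoglobulin genes held 3.92 to 4.49% in the mice and 0.0841 to 0.198% in the organoids. Most members of these lists had no organoid mRNA library at 1 CPM or more. The plasma cell genes were the clearest. Igha, the heavy chain of IgA, had 12951, 12859 and 14024 CPM in the mice and 0, 0 and 1.82 CPM in the organoids (log2 fold change 13.62 ± 0.65 (SE), adjusted p = 1.06e-06). Igkc, the κ light chain, had 3879, 4794 and 5636 CPM in the mice and 0, 0 and 0 CPM in the organoids (at least 3239.8-fold higher in the mice, adjusted p = 1.25e-06). Jchain, which joins IgA into dimers, had 1186, 1226 and 1194 CPM in the mice and 0, 0 and 0 CPM in the organoids (at least 817-fold higher in the mice, adjusted p = 1.06e-06). The mice carried these footprints at like levels, and the cultures at 0 or nearly so. All 10 tested genes of the B and plasma cell list were at least 4-fold higher, and 12 of its 14 genes had no footprint in any organoid library. All 10 tested T and NK cell genes and all 15 tested myeloid genes were at least 4-fold higher too, with 16 of 17 and 13 of 20 listed genes without a footprint in the cultures. Gzma, a protease of cytotoxic granules, had 151, 202 and 181 CPM in the mice and 0, 0 and 0 CPM in the organoids (at least 121-fold higher in the mice, adjusted p = 2.08e-06). Csf1r, the macrophage growth factor receptor, had 138, 149 and 145 CPM in the mice and 0, 0 and 0 CPM in the organoids (at least 97.7-fold higher in the mice, adjusted p = 1.76e-06). Ctss, a protease of antigen-presenting cells, had 336, 310.0 and 325 CPM in the mice and 0.504, 1.53 and 4.44 CPM in the organoids (log2 fold change 6.84 ± 0.42 (SE), adjusted p = 2.46e-06).

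Muscle and stroma gave the same picture. All 16 tested smooth muscle genes were higher in the mice, 14 of them by at least 4-fold, with a median of 8.08 (6.32 with the genes at or under the floor set to their bound). Myh11, the smooth muscle myosin heavy chain, had 681, 765 and 826 CPM in the mice and 0.504, 0 and 1.21 CPM in the organoids (log2 fold change 9.78 ± 0.40 (SE), adjusted p = 7.54e-07). Acta2, smooth muscle actin, had 348, 383 and 429 CPM in the mice and 7.06, 0.766 and 0.202 CPM in the organoids (log2 fold change 7.44 ± 0.70 (SE), adjusted p = 2.28e-05). Of 18 fibroblast and matrix genes 16 were higher, 15 of them by at least 4-fold, with a median of 8.72 (5.85 with the genes at or under the floor set to their bound), and Col3a1, a fibrillar collagen, had 378, 377 and 365 CPM in the mice and 0, 0 and 0 CPM in the organoids (at least 254-fold higher in the mice, adjusted p = 1.06e-06). The members that did not follow were Vim, the filament protein vimentin, which was lower in the mice with 98.5, 144 and 143 CPM in the mice and 129.6, 210.0 and 705 CPM in the organoids (log2 fold change -1.43 ± 0.54 (SE), adjusted p = 0.0421), and Fbln1, a matrix protein, without a call (log2 -0.30). Of 12 tested endothelial genes 10 were at least 4-fold higher, with a median of 5.86 (3.51 with the genes at or under the floor set to their bound). Plvap, a protein of vessel walls, had 68.9, 60.4 and 83.6 CPM in the mice and 0.504, 1.53 and 1.21 CPM in the organoids (log2 fold change 5.98 ± 0.35 (SE), adjusted p = 1.96e-06). Egfl7 was lower in the mice and Esam had no call, at log2 -1.73 and -0.69. Of 6 tested genes of the enteric nervous system 4 were at least 4-fold higher and 1, the receptor gene Ret, was lower (log2 -1.51). The neuropeptide gene Vip had 22.5, 21.7 and 19.9 CPM in the mice and 0, 0 and 0 CPM in the organoids (at least 14.5-fold higher in the mice, adjusted p = 3.56e-05), while Uchl1, a neuronal ubiquitin hydrolase, lost its call without m3 (adjusted p = 0.209, the highest of its alternatives). All 6 tested fat and mesothelial genes were at least 4-fold higher, with a median of 9.14 (4.23 with the genes at or under the floor set to their bound). Fabp4, the fatty acid carrier of adipocytes, had 77.4, 77.4 and 79.2 CPM in the mice and 0, 0 and 0 CPM in the organoids (at least 53-fold higher in the mice, adjusted p = 3.3e-06).

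Pancreatic acinar genes were present in all the mice. Of 19 tested genes 18 were higher, 16 of them by at least 4-fold, with a median of 10.51 (6.70 with the genes at or under the floor set to their bound). The list held 0.342 to 0.800% of the footprints on shared genes in the mice and 0.00814 to 0.0134% in the organoids. Cela2a, a digestive elastase, had 473, 309.5 and 714 CPM in the mice and 0, 0 and 0 CPM in the organoids (at least 339-fold higher in the mice, adjusted p = 7.06e-06). Ctrb1, chymotrypsinogen, had 591, 345 and 952 CPM in the mice and 2.02, 0 and 2.42 CPM in the organoids (log2 fold change 8.37 ± 0.59 (SE), adjusted p = 4.82e-06). Amy2a5, the pancreatic amylase, which has a near copy, had 2607, 1699 and 3905 CPM in the mice and 0.504, 0 and 0 CPM in the organoids. The mice ranked m2, m1, m3 from low to high in each of these genes, with more than 2-fold between the ends, whereas their other lists stayed close to one another. Of the haemoglobin genes, Hba-a2 had 99.9, 90.1 and 84.3 CPM in the mice and 4.03, 0 and 0 CPM in the organoids and Hbb-bs had 98.5, 109 and 83.8 CPM in the mice and 112, 0.766 and 54.1 CPM in the organoids, and the latter is a near copy of Hbb-bt. Summed, the β-globin copies gave 98.6, 110.4 and 85.7 CPM in the mice and 224, 1.53 and 108 CPM in the organoids, although the SCe organoid mRNA libraries held 0 CPM of Hbb-bs. The 4 Y-linked genes, listed as a check, had no call, with a median of 1.14. Summed, they held 135, 116 and 114 CPM in the mice and 2.02, 103 and 78.7 CPM in the organoids. Org1 thus lay far below every other library, and the lack of a call does not show that the groups were alike in these genes.

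**Figure D3:**
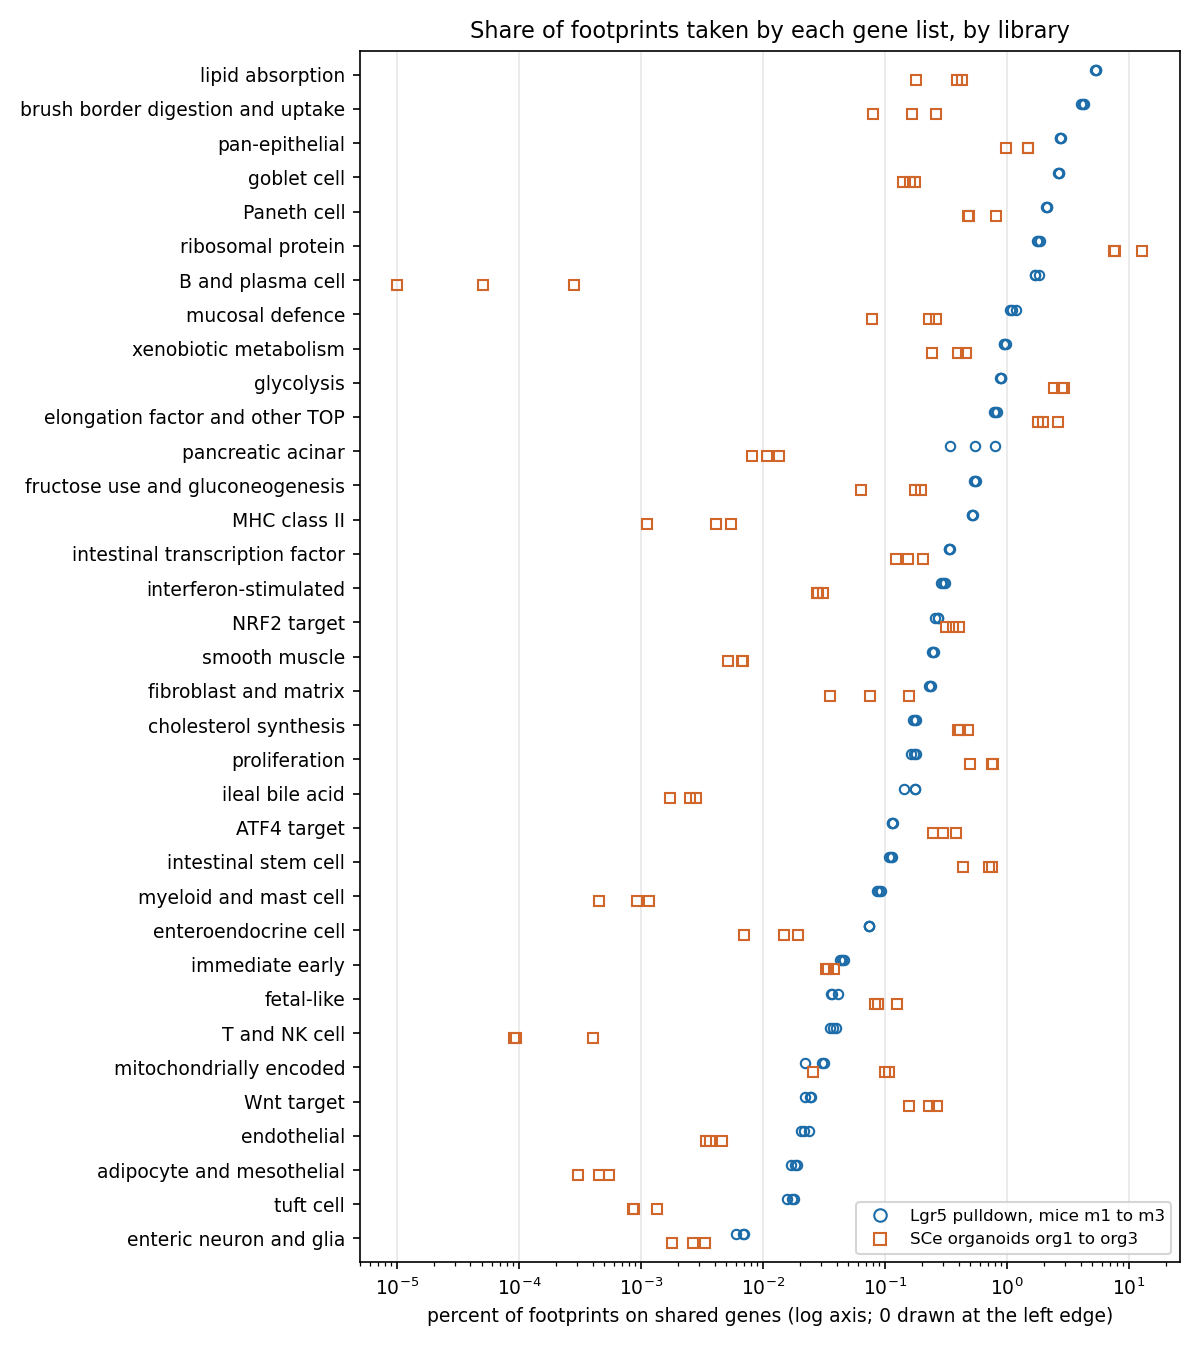
Share of footprints on shared genes taken by each gene list, in percent on a log axis, with 1 circle per mouse and 1 square per SCe organoid culture. Brush border genes hold 4.07 to 4.29% in the mice and 0.0791 to 0.261% in the cultures, ribosomal protein genes hold less in the mice than in the cultures, and pancreatic acinar genes spread most among the mice.

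When the genes of the non-epithelial lists and all immunoglobulin genes were left out, the counts for the other genes could change only through scaling, and this does not bear on how much material of other cells the pulldowns held. Of the 10714 genes then tested, 1784 were at least 4-fold higher and 684 at least 4-fold lower in the mice. Of the 2017 and 691 large calls above, 1779 and 684 were among these. With each library thinned to 770657 footprints, 8629 genes were tested and 1408 and 538 were large.

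The largest differences needed a check of near-identical genes, because a footprint of about 30 bases cannot be assigned to one of several genes with the same sequence there. Genes of either reference were grouped when they shared at least 20% of the 30-base stretches of the shorter coding sequence, which placed 3452 of 22316 genes in 1019 groups, and the counts of each group were summed. Of the 10 largest falls in the mice, 8 belonged to such groups, and only Igf2bp3 and Igfbp2 did not. Rpl35, a protein of the large ribosomal subunit, had 5.0, 15 and 39 footprints in the mice and 5119, 1469 and 3999 in the organoids, and its copy Gm2000 had 135, 400 and 1039 in the mice and 0, 0 and 0 in the organoids. Cycs, cytochrome c, had 0, 0 and 17 footprints in the mice and 1108, 342 and 1461 in the organoids, and its copy Gm10053, which is in the mouse reference alone, had 308, 820 and 1837 in the mice. The footprints of each pair thus lay on one copy in the mice and on the other in the organoids. The coding sequences below, read from GENCODE vM21 transcripts on GRCm38, show how close the second pair is. Cycs (minus strand, chr6:50565240-50565660) and Gm10053 (plus strand, chr19:24875753-24876067) have 315 coding bases with no difference, and their first 30 are shown.
Cycs: atgggtgatgttgaaaaaggcaagaagatt
Gm10053: atgggtgatgttgaaaaaggcaagaagatt

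With copies summed, Rpl35 went from a log2 fold change of -7.53 to -2.79, near the other ribosomal proteins, and Cycs from -7.40 to 0.19 (adjusted p = 0.579 by edgeR, with a range of 8.76e-11 to 0.579 over its alternatives). Gm45233, which overlaps Etfb, and Myl12b, a myosin light chain with a near copy in Myl12a, lost their calls as well, at log2 -0.13 and -0.46 once summed. Gm49342, which shares sequence with the nucleoside phosphorylase genes Pnp and Pnp2, turned from -10.25 to 1.70. Dynlt1c, a dynein light chain with 3 copies, went to -1.0, a value under 4-fold. Sprr2a1, a small proline-rich protein, and Hist1h4m, 1 of 11 histone H4 genes summed, stayed lower by at least 4-fold, at -2.05 and -2.53. Across the comparison the effect was small. Of the 1849 genes higher in the mice by the strict rule, 1815 stayed large with copies summed, and of the 588 that were lower, 556 did. Genes that share sequence made up 13.4% of the former, 15.5% of the latter and 6.44% of all tested genes.

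**Figure D4:**
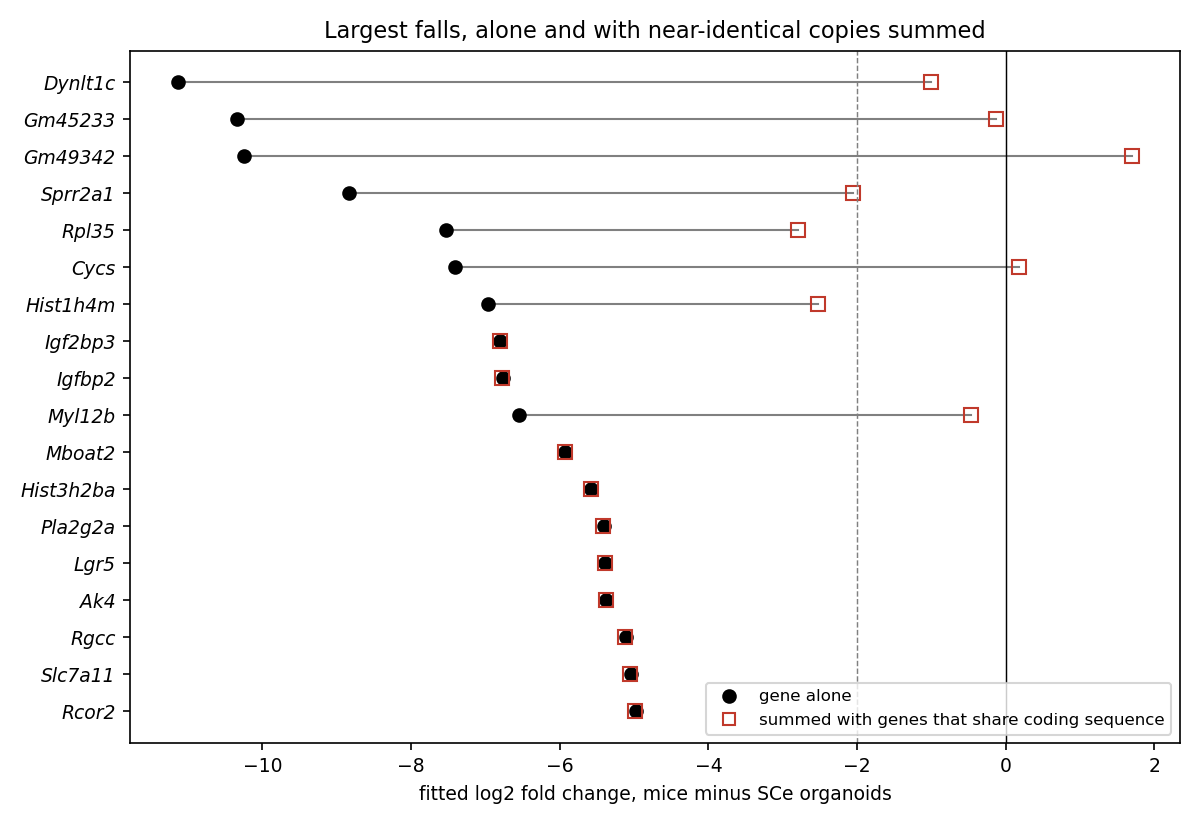
Fitted log2 fold changes (mice minus SCe organoids) of the 10 largest falls and of the largest falls among genes that share no coding sequence, for each gene alone (filled circles) and with near-identical copies summed (open squares), with a dashed line at 4-fold. Gm49342 and Cycs move from below -7 to above 0, while Igf2bp3, Lgr5 and the other genes without copies stay where they were.

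Genes without copies that were furthest below the organoids came from several functions. Igf2bp3, an RNA-binding protein of fetal and tumour tissue, had 1.41, 0.530 and 0.219 CPM in the mice and 48.4, 55.9 and 55.3 CPM in the organoids (at least 24.7-fold lower in the mice, adjusted p = 2.61e-06). Igfbp2, which binds insulin-like growth factors, had 0, 0.530 and 0.657 CPM in the mice and 10.1, 35.2 and 142 CPM in the organoids (at least 29-fold lower in the mice, adjusted p = 0.00115), and its cultures differed by more than 10-fold. Mboat2, an acyltransferase of phospholipids, had 0, 0.530 and 0.657 CPM in the mice and 38.8, 32.9 and 36.9 CPM in the organoids (at least 16.8-fold lower in the mice, adjusted p = 4.15e-06). The mice held at most 1.41 CPM of any of these. Pla2g2a, a secreted phospholipase of Paneth cells, had 2.81, 6.89 and 4.82 CPM in the mice and 412, 83.5 and 166 CPM in the organoids (log2 fold change -5.40 ± 0.65 (SE), adjusted p = 9.65e-05), against the direction of most Paneth genes. Ak4, a mitochondrial adenylate kinase, Rgcc, a regulator of the cell cycle, and Rcor2, a corepressor, were 53.8-fold, 32.3-fold and 30.1-fold lower, and the histone gene Hist3h2ba 52.4-fold, and the groups did not overlap for any of them.

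The 10 largest rises, all at or near 0 in the cultures, were of mixed origin. Immunoglobulin genes made up 4 of them with Jchain, namely Igkc, Jchain, Ighv1-53 and Igkv6-23. Fabp6, H2-Aa, Amy2a5 and Defa33 were named above or belong to the same families, and Defa33 has near copies. Enpp7, an enterocyte enzyme that digests sphingomyelin, had 674, 722 and 738 CPM in the mice and 0, 0 and 0 CPM in the organoids (at least 483-fold higher in the mice, adjusted p = 1.06e-06). Apoe, an apolipoprotein made by macrophages and other cells, had 737, 696 and 799 CPM in the mice and 0, 0 and 0 CPM in the organoids (at least 505-fold higher in the mice, adjusted p = 1.06e-06), although its mRNA was present in SCe organoids at 8.60 to 10.4 CPM. Every mouse library was above 500 CPM for both.

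mRNA libraries from organoids show which of these genes reached 1 CPM of mRNA in cultured epithelium. They comprise 4 wild-type, 4 Rptor fl/fl and 3 SCe libraries, and a gene was counted as present when any of the 11 reached 1 CPM. Of the 1849 genes higher in the mice, 1299 (70.3%) were present, against 10353 of all 10965 tested genes (94.4%) and 561 of the 588 that were lower (95.4%). The 550 genes under 1 CPM of mRNA in all 11 libraries had a median log2 fold change of 8.40 and the 1299 that reached it one of 3.53. A gene under that limit can still hold some mRNA reads. Muc2 is an example of low mRNA in the same medium, with 1.75 to 4.12 CPM in the SCe libraries and 77 to 95.7 CPM in wild-type organoids grown without enrichment. Sis, in contrast, had 2.84 to 1523 CPM of mRNA in the SCe libraries, and Lgr5 had 209.6 to 367 CPM there and 192 to 219 CPM in the wild-type ones. No mRNA library of the mice is among the libraries used, so the mouse footprints cannot be divided into mRNA level and translation.

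The same contrast of mouse and organoid footprints exists in Rptor fl/fl material, with Lgr5Cre.ERT2.Rptor.fl/fl.RPL22.HA as the genotype of 3 mice. Its 3 organoid cultures were VillinCre.ERT2.Rptor.fl/fl.RPL22.HA. It shares no library with the wild-type contrast. Those organoids are labelled untreated, so they differ from the SCe organoids in medium as well as in the allele. Of 12448 genes tested there, 2661 (21.4%) were at least 4-fold higher in the mice and 858 (6.89%) at least 4-fold lower. Of the 1849 genes higher in the wild-type mice, 1835 were tested and 1481 (80.7%) were also large in the same direction, whereas 11 had a call in the opposite direction. Of the 588 that were lower, 547 were tested and 307 (56.1%) were large in the same direction, with 13 opposite calls. Over the 10897 genes tested in both, the log2 fold changes had a Pearson r of 0.904, a description across genes that share preparation and reference.

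The medians of some gene lists are given for both pairs. The brush border, MHC class II and interferon lists had medians of 4.51, 9.41 and 6.14 in the Rptor fl/fl pair, beside 5.81, 9.02 and 5.43 here. The Paneth and goblet lists had medians of 0.53 and 1.00 there, beside 2.88 and 2.93 here. Lyz1 had 1606, 1062 and 941 CPM in Rptor fl/fl mice and 1769.8, 1465 and 1559 CPM in Rptor fl/fl organoids, and although the groups overlapped it was lower in those mice (log2 fold change -0.41, adjusted p = 0.0334 by edgeR), opposite to the wild-type pair. Olfm4, without a call above, had 357, 334 and 303 CPM in those mice and 3889, 4167 and 4051 CPM in those organoids (log2 fold change -3.61, adjusted p = 8.75e-12 by edgeR). Lgr5 had 49.3, 9.19 and 6.83 CPM and 185, 184 and 192 CPM, so its footprints were below the organoids in both sets of mice. Whether the contrasts of the pairs differ was not tested for any gene or list.

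**Figure D5:**
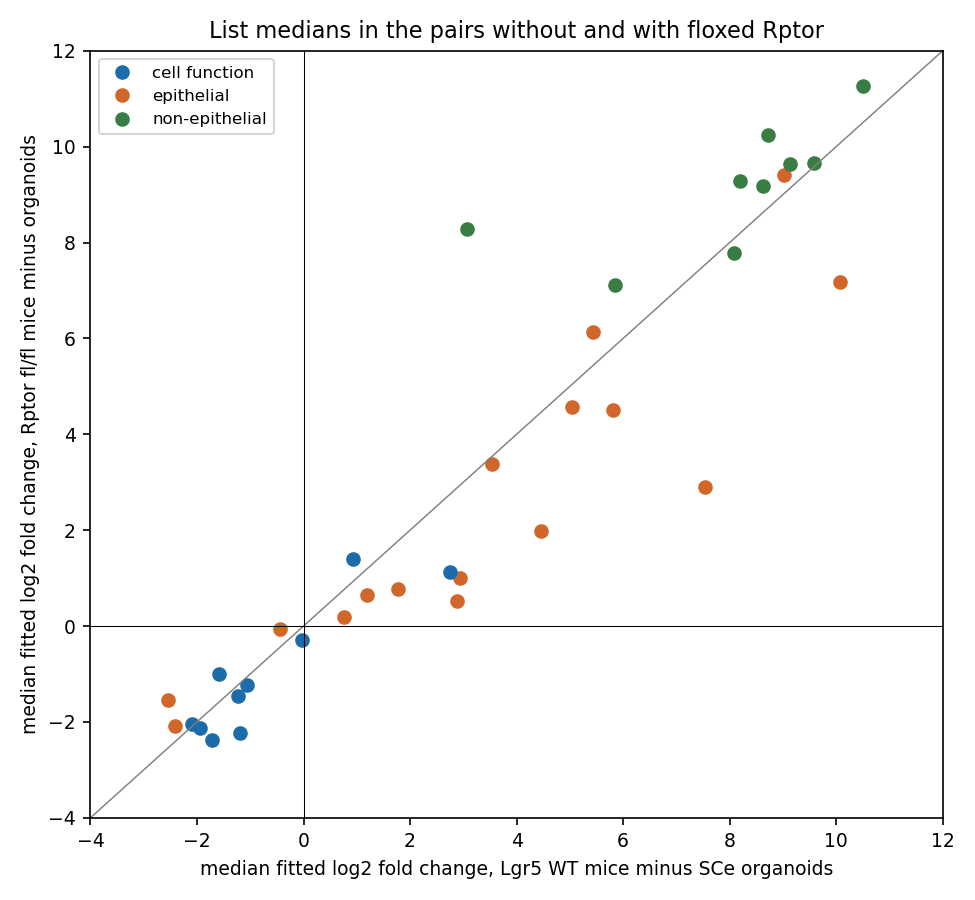
Median fitted log2 fold changes of gene lists (mice minus organoids) in the Lgr5 WT and SCe pair (x axis) and in the Rptor fl/fl pair (y axis), with 1 point per list coloured by class and the line of equal values. The non-epithelial lists lie high on both axes, and the goblet and Paneth lists fall below the line, at 1.00 and 0.53 on the y axis.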

How the data were processed

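The deposited files give estimated counts per transcript, which the authors made with Salmon 1.1.0 on reads trimmed with cutadapt 1.18, with GENCODE vM21 coding sequences as reference. Effective lengths, in bases, come from the same deposited files and were used as an offset in 1 alternative. The estimated counts were summed per gene without the organoid 5′ entries and rounded, and mRNA counts were summed likewise. Genes were filtered with filterByExpr, scaled by TMM and tested with edgeR 4.0.16 (quasi-likelihood, limma 3.58.1, R 4.3.3, Benjamini-Hochberg adjustment over all tested genes), with no covariate. Alternatives used DESeq2 1.42.0, other scalings and filters, the 5′ entries, thinning, leaving out each library, the replicate number and, chosen after seeing the data, summed copies. Ranges of adjusted p over the alternatives of a gene also cover the Rptor fl/fl pair where it was tested there. That pair holds other libraries, so these ranges are not of processing alone. The code was tested on simulated counts. A deposited table of translation efficiency comparisons holds the authors' own tests and was not used.

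Each group has 3 samples. The sources do not say whether organoid cultures came from separate animals, so p-values measure the spread between these samples. A bound for a group at or under 3 counts in every library uses 3 counts per library, averaged over the group, and covers counting error only. The members and gene lists were chosen with earlier results of these data known. Named genes are the 3 members of each list with the highest CPM in the higher group among large calls that held with the 5′ entries and had no overlap, the genes the study follows, and the 10 largest rises and falls with at least 20 CPM. List members without a call, members that went against their list and the falls without shared sequence were added after their values were seen. Some of the listed genes and 1 pair of sequences are not reported here.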

Additional observations from a re-analysis of the deposited data

Results flagged for a closer look

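The direction of Chgb and of Nqo1 differed between the pairs of groups, and the difference itself was not tested. Chgb, chromogranin B, was higher in the wild-type mice than in the SCe organoids, with a log2 fold change of 2.66, and the Rptor fl/fl pair gave -1.0, with 264, 161 and 168 CPM in the mice and 432, 373 and 370.4 CPM in the organoids. Nqo1, the quinone reductase, had a log2 fold change of 2.06 in the wild-type pair and -0.41 in the Rptor fl/fl pair, with 58.9, 48.9 and 48.2 CPM in the mice and 71.5, 69.8 and 64.3 CPM in the organoids. In each pair, all libraries of one group lay above all libraries of the other. The organoids of the pairs were grown in different media and differ in the Rptor allele, which cannot be told apart in these footprints. Chgb mRNA was at 126 to 200 CPM in wild-type organoids grown without enrichment and 73.3 to 179 CPM in Rptor fl/fl organoids. In SCe organoids it was at 1.06 to 17.9 CPM. The part of mRNA level in the footprint difference was not tested. No group has enough samples for a test of single outlying libraries.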

How the results depend on the processing

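The counts of genes higher in mice and genes lower in mice stayed within 1.5 times the reported ones except against a minimum fold of 2 (glmTreat), which gave 2455 and 1288. The number of genes at least 4-fold higher in mice became 3253 with no count filter, where 16993 genes were tested, and genes at least 4-fold lower in mice stayed within that range throughout. Leaving out each library gave 3270 to 4141 higher and 2395 to 3460 lower, with 2031 to 2258 and 686 to 815 large. A fit with replicate number as a replicate block gave 3640 and 2810 genes, 2045 and 618 of them large; same-numbered samples did not deviate together (correlations of -0.039, -0.040 and 0.008), so the numbers are names only. Of 125 tested named genes, 115 kept direction and call in every alternative on these libraries that tested them, but only 120 were tested when thinned and 95 without non-epithelial and immunoglobulin genes. Most were named because they were large, stayed large with the 5′ entries and had no overlap. Their outcome with the 5′ entries was thus fixed by the choice. The other fits reuse the libraries that served for choosing, so the count of 115 is no independent support. Signs turned for Gm49342 (1.70) and Cycs (0.19) with copies summed. The sign of Ly6a turned with the replicate block (0.17) and without SCe organoid replicate 1 (0.74, against -0.99 without replicate 2). In the Rptor fl/fl pair, Defa3 (-0.42), Chgb (-1.0), Nqo1 (-0.41), Lyz1 (-0.41) and Ly6a (1.97) had the opposite sign, and Defa24, Alpi and Mboat2 had no call; the cause was not tested. Zfp36 lost its call with a length offset (adjusted p = 0.0656 by edgeR, the highest of its alternatives). Of 37 list medians, 25 were above 0 and 9 below 0 in every setting on these libraries. The smallest library, with 770700 footprints, limits genes of a few CPM.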
